A study of Mus musculus with 12 samples.

Results

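Interferon-stimulated genes are the genes a cell switches on when an interferon binds its receptor. A set of 37 of them was followed in mouse liver, chosen by gene symbol from the 35275 genes of the count table, and all 37 were found there. The set holds 26 genes best known as targets of type I interferon, 10 interferon-gamma-induced GTPases and the transcription factor Irf1. RNA-seq had been run on whole liver of male C57Bl/6J mice aged 13 weeks. For the last 1 week 6 of the libraries' animals had eaten plain chow (chow replicates 2, 3, 7, 8, 16 and 17), and those of the other 6 a diet with 0.5% norUDCA, a side-chain-shortened form of ursodeoxycholic acid (norUDCA replicates 9, 10, 11, 12, 13 and 20). The titles mark every library as WT (wild type), and no other genotype than this inbred strain, and no infection or injury, is named in the labels. The labels also do not say that each library came from its own animal, so that the p-values measure the spread between libraries. Library totals ran from 12209706 to 13715026 counts in chow and from 14065837 to 15342922 counts in norUDCA, without overlap (two-sided exact permutation test over all regroupings, p = 0.00216, the smallest this design allows). All members passed the filter on low counts, with 4 to 4793 counts per member and library.

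Type I interferons signal through the receptor chains Ifnar1 and Ifnar2 to a complex with Stat2 and Irf9, which binds a promoter element called the interferon-stimulated response element (ISRE). Interferon-gamma signals through Ifngr1 and Ifngr2 to a promoter element called the gamma-activated site (GAS) and also raises Irf1, a factor that in turn uses ISRE-like elements. Many genes answer to both, and the GTPases of the Gbp and Irg families, which attack the membranes around intracellular microbes, answer most strongly to interferon-gamma. In liver, hepatocytes, Kupffer cells and endothelial cells can all respond, and Kupffer cells and plasmacytoid dendritic cells are known sources of type I interferon.

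On norUDCA 10 of the 26 type I members fell and none rose, while none of the 10 GTPases and not Irf1 passed the test in either direction (edgeR quasi-likelihood F test across 12378 genes, Benjamini-Hochberg adjusted p under 0.05). The members that fell were Mx1, Rsad2, Oas1a, Isg15, Ifi27, Ifit3, Dhx58, Usp18, Irf7 and Bst2. Among all tested genes 8.62% were called lower and 6.73% higher, 15.3% in either direction. The median log2 fold change of norUDCA over chow was -0.58 over the type I members and -0.05 over the GTPases, beside -0.00 over all tested genes, and 25 of 26 type I members but 5 of 10 GTPases had a negative value. Of the GTPases 1 had an unadjusted p under 0.05, and DESeq2 called 0 of them (it gave no adjusted p for Igtp). With scaling by total counts, which moves the median of all tested genes to 0.15, the medians were -0.43 and 0.10, 8 type I members and no GTPase were called, and Irf9, Oasl1, Oasl2 and Ddx58 changed sign. Whole liver was sequenced, so fewer cells of a type and less RNA per cell cannot be told apart. The library norUDCA 13 stood apart in these genes. It was the highest norUDCA library in 22 of 26 type I members and in 10 of 10 GTPases, against 15.2% of all tested genes, and the highest of all 12 libraries in 4 type I members and 9 GTPases, against 5.16%. Calls that it decides are given with and without it. It was singled out by the values of these same genes, and leaving out their highest treated library favours lower calls. The fit without it is therefore a description of what the calls depend on and no independent support. Levels are CPM, the counts per 1000000 of a TMM-scaled library.

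**Figure D1:**
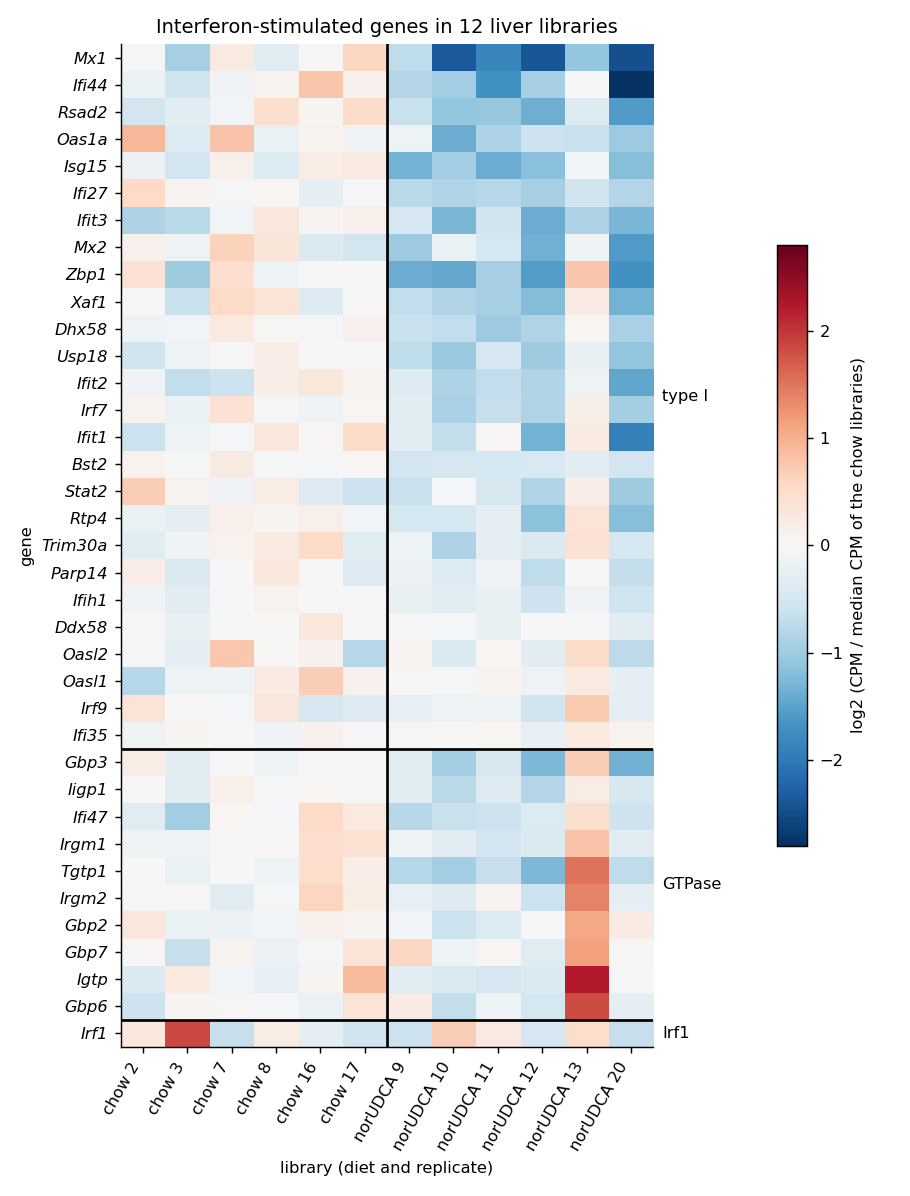
Level of each member (rows, grouped by class and ordered by fold change) in each of the 12 libraries (columns), as log2 of its CPM over the median CPM of the 6 chow libraries; blue is lower and red higher than that median. The type I block is mostly blue in the norUDCA columns except in norUDCA 13, where 10 of 10 GTPases lie above the chow median; Irf1 is reddest in chow 3.

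Mx1 encodes a dynamin-like GTPase that blocks influenza virus and is known to carry a disabling deletion in most laboratory strains, C57BL/6 among them. Its level ranged from 0.711 to 2.03 CPM (median 1.36) in chow and from 0.247 to 0.837 CPM (median 0.326) in norUDCA, so the groups overlapped at one value only, norUDCA 9 over chow 3. Mx1 was 3.09-fold lower on norUDCA (log2 fold change -1.63, SE 0.35, adjusted p = 0.00606), at the lowest level per kilobase of the 37 members. Rsad2 encodes viperin, a radical-SAM enzyme that makes a chain-terminating nucleotide. It lay between 7.10 and 14.4 CPM (median 10.1) in chow and between 3.40 and 7.86 CPM (median 4.85) in norUDCA, with norUDCA 13 the highest of the treated libraries and the only one above the lowest chow library. The difference was 2.04-fold (log2 fold change -1.03, SE 0.22, adjusted p = 0.00657). Oas1a, an oligoadenylate synthetase whose product activates RNase L, had 1.34 to 3.34 CPM (median 1.76) in chow and 0.669 to 1.6 CPM (median 1.06) in norUDCA. Its groups overlapped, and its fall of 1.99-fold (log2 fold change -0.99, SE 0.28, adjusted p = 0.0292) held in 7 of the 12 fits that left out 1 library. Reads of Oas1a may be shared with its near-identical neighbour Oas1g. Ifit3 belongs to a family of proteins that bind foreign RNA. It spanned 5.26 to 11.9 CPM (median 9.60) in chow and 3.64 to 6.98 CPM (median 4.60) in norUDCA, and the 2 lowest chow libraries, 2 and 3, lay within the treated range. Ifit3 was 1.74-fold lower (log2 fold change -0.80, SE 0.23, adjusted p = 0.0298), in 5 of the 12 fits with 1 library left out.

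Bst2 and Ifi27 were the members whose diets did not overlap. Bst2 encodes tetherin, a membrane protein that holds budding virions at the cell surface, and it had the highest level per kilobase of all members in both diets. It lay between 144 and 181 CPM (median 151) in chow and between 104 and 123 CPM (median 108) in norUDCA. It fell by 0.51 on the log2 scale (SE 0.07, adjusted p = 0.000337), 1.42-fold, the smallest fold of the 10 calls. Ifi27 encodes a small hydrophobic protein of mitochondrial and nuclear membranes and ranked next to Bst2 in level per kilobase in chow. It lay between 72.2 and 126 CPM (median 85.5) in chow and between 45 and 58.4 CPM (median 48.6) in norUDCA, with chow 2 far above the next chow library at 90.2 CPM. It was 1.81-fold lower on norUDCA (log2 fold change -0.86, SE 0.12, adjusted p = 0.000253) and had an adjusted p of at most 0.000999 whichever library was left out. No member was higher without overlap. Of all tested genes 4.07% were lower and 3.59% higher without overlap. Without norUDCA 13 the count of members lower without overlap was 12 (9 type I and 3 GTPases), where 4.93% of genes were lower and 4.44% higher in that way. Leaving out a library can only keep or raise such a count. As norUDCA 13 was the highest norUDCA library in 32 of the 37 members, against 15.2% of all tested genes, these shares are not a like comparison.

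Isg15, its protease Usp18, the sensor Dhx58 and the factor Irf7 fell as well. Isg15 is a ubiquitin-like protein that is attached to other proteins. It had 6.72 to 11.6 CPM (median 9.75) in chow, and 5 norUDCA libraries lay between 3.72 and 4.95 CPM while norUDCA 13 was at 9.21 CPM. It was 1.85-fold lower (log2 fold change -0.89, SE 0.22, adjusted p = 0.0150), and -1.14 on the log2 scale without norUDCA 13 (adjusted p = 0.000707). Usp18, which removes Isg15 from its targets and dampens the type I receptor, had 10.02 to 16.8 CPM (median 14.7) in chow and 6.87 to 12.7 CPM (median 8.21) in norUDCA, where norUDCA 13 was again the highest. Its log2 fold change was -0.65 (SE 0.16, adjusted p = 0.0151). Dhx58 encodes LGP2, a cytosolic receptor for viral double-stranded RNA. It had 9.10 to 12.1 CPM (median 10.1) in chow, and in norUDCA 5 libraries from 5.01 to 6.56 CPM with norUDCA 13 at 10.4 CPM. Its log2 fold change was -0.66 (SE 0.16, adjusted p = 0.0147). Irf7, the factor that drives interferon-alpha genes, had 33 to 49.3 CPM (median 37.4) in chow and 19.4 to 42.2 CPM (median 22.5) in norUDCA, all but norUDCA 13 under the lowest chow library. Its log2 fold change was -0.57 (SE 0.18, adjusted p = 0.0418), a call kept in 2 of the 12 fits with 1 library left out, those without chow 3 and without norUDCA 13. Isg15, Usp18, Rsad2, Ifi27, Mx1, Dhx58 and Bst2 were called in all 12 such fits.

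**Figure D2:**
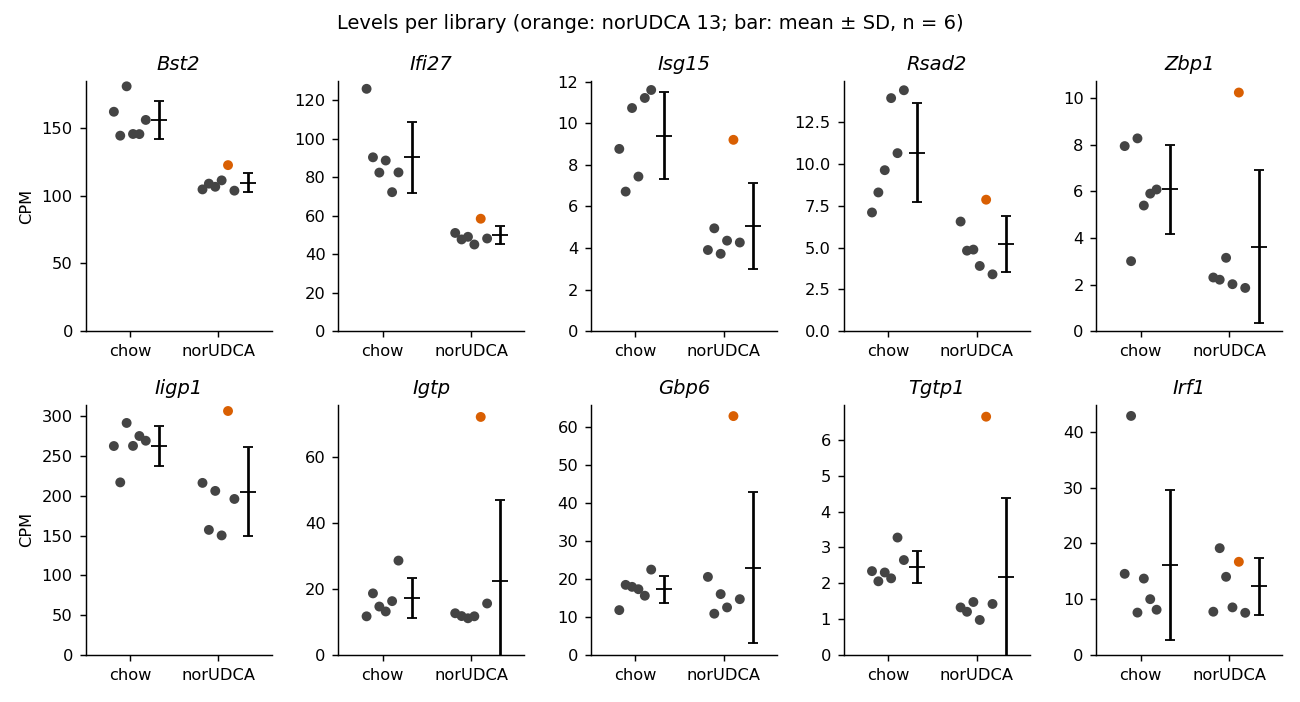
CPM of 10 members in each library, by diet (points), with the mean ± SD of 6 libraries beside them and norUDCA 13 in orange; each axis starts at 0, where bars that would reach below are cut. Bst2 and Ifi27 do not overlap between the diets; in Zbp1, Igtp, Gbp6 and Tgtp1 norUDCA 13 lies far above the other 5 treated libraries, and in Irf1 chow 3 does so in chow.

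The other 16 type I members did not pass the test. Their log2 fold changes ran from -1.05 (Ifi44) to 0.05 (Ifi35). The smallest p-values among them were those of Ifi44, a protein of largely unknown function (adjusted p = 0.0590), Ifih1, the RNA sensor MDA5 (log2 fold change -0.27, SE 0.09, adjusted p = 0.0678), and Mx2 (log2 fold change -0.75, SE 0.27, adjusted p = 0.0737). Without norUDCA 13 the same edgeR test called Ifi44 (adjusted p = 0.0161), Xaf1 (0.00652), Rtp4 (0.0267), Mx2 (0.0438), Ifih1 (0.0490) and Zbp1 lower. Ifi44 had 1.42 to 3.60 CPM (median 2.09) in chow and 0.309 to 2.11 CPM (median 1.09) in norUDCA. Ifih1 had 32.6 to 42.9 CPM in chow and 26.7 to 37.1 CPM in norUDCA, so that both genes overlapped between the diets. The third cytosolic RNA receptor of the set, Ddx58 (RIG-I), had 23.6 to 33.6 CPM in chow and 22 to 27 CPM in norUDCA, with a log2 fold change of -0.12 (95% interval -0.31 to 0.07). Stat2 and Irf9, both parts of the complex that binds the ISRE, spread widely within chow. Stat2 had 37.8 to 91.4 CPM in chow and 28.1 to 64.4 CPM in norUDCA (log2 fold change -0.45, 95% interval -0.94 to 0.04, adjusted p = 0.205). Irf9 had 18.9 to 33.8 CPM in chow, and in norUDCA 5 libraries from 17.9 to 23.7 CPM with norUDCA 13 at 43.4 CPM (log2 fold change -0.05, 95% interval -0.48 to 0.38). Zbp1, a sensor of Z-form nucleic acid that can start necroptosis, had 3.003 to 8.27 CPM in chow, and 1.86 to 3.15 CPM in norUDCA apart from norUDCA 13 at 10.2 CPM. Its log2 fold change was -0.74 (SE 0.40, adjusted p = 0.240), and -1.38 without norUDCA 13 (adjusted p = 0.00244). Xaf1, an antagonist of an inhibitor of apoptosis, showed the same order, with 4.90 to 10.9 CPM in chow, 3.03 to 4.67 CPM in 5 norUDCA libraries and 8.82 CPM in norUDCA 13 (log2 fold change -0.73, SE 0.26, adjusted p = 0.0741). Ifit2, Rtp4, Trim30a, Parp14, Oasl2 and Oasl1 had log2 fold changes from -0.59 (Ifit2, adjusted p = 0.119) to -0.06 (Oasl1, adjusted p = 0.871). Ifi35, the one type I member above 0, had 12.4 to 14.7 CPM in chow and 11.6 to 16.4 CPM in norUDCA (95% interval of the log2 fold change -0.14 to 0.25).

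**Figure D3:**
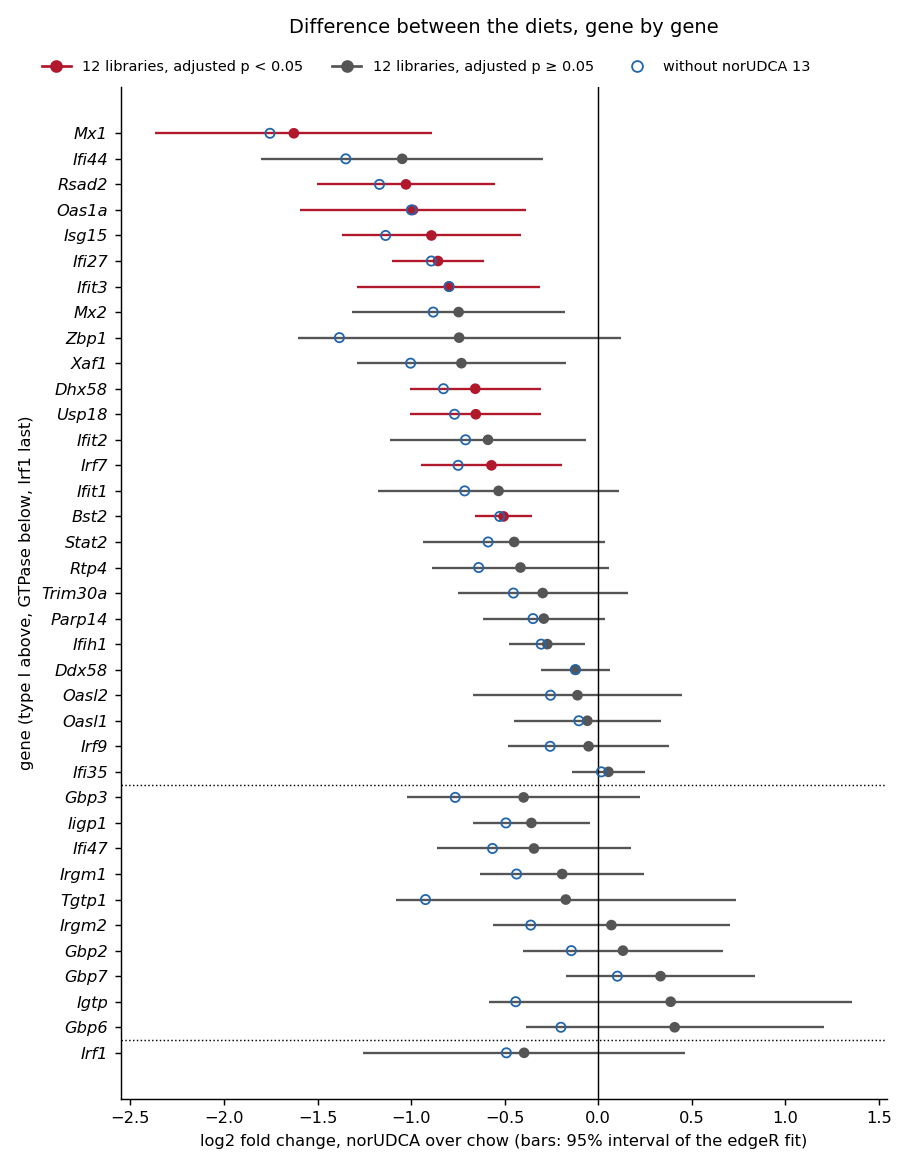
Log2 fold change of norUDCA over chow for each member (filled points, with the 95% interval of the edgeR fit; red where adjusted p is under 0.05) and the same without norUDCA 13 (open circles). All 10 red points are type I members between -1.63 and -0.51; the open circles lie left of the filled points in each GTPase, where 9 of 10 are then below 0.

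The promoters of several members carried the letters that interferon-activated factors bind. Promoter windows of RefSeq genes (GRCm38.p6, from 250 bases before to 50 bases after the start) were matched for 27 of the 37 members. The core of the ISRE was searched as GAAA, any 2 bases and GAAA on either strand, and the core of the GAS as TTC, any 3 bases and GAA, which reads the same on both strands. The ISRE letters stood in 10 of 18 type I members matched and in 7 of 8 GTPases, beside 3.99% of all 27025 genes with a window. The GAS letters stood in 4 of 18 type I members, in 4 of 8 GTPases and in Irf1, beside 9.55% of all genes. To show how alike these elements are in genes that fell and in a neighbour that did not pass the test, the stretches of 6 type I members are given, with each match and its overlaps in capitals. In Isg15 (chr4:156200860-156200911, minus strand) 3 ISRE matches overlap, and in Bst2 (chr8:71537572-71537623, minus strand) a GAS match runs into 2 overlapping ISRE matches. In Oas1a (chr5:120907526-120907638, minus strand) a GAS match lies apart from 2 overlapping ISRE matches. Rsad2 (chr12:26456548-26456587, minus strand) holds 1 ISRE match, and Ifit3 (chr19:34583358-34583431, plus strand) and Ifit1 (chr19:34640770-34640828, plus strand) hold 2 each.
Isg15: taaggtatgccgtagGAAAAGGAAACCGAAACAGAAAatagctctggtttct
Bst2: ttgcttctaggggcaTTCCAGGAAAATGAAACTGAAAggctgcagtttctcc
Oas1a: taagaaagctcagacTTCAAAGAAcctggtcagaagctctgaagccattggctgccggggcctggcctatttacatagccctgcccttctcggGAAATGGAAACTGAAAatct
Rsad2: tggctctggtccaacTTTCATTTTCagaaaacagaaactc
Ifit3: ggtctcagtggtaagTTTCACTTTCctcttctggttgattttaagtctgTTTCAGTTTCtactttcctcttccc
Ifit1: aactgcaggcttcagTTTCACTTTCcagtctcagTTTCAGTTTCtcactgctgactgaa
Of these 6 genes 5 fell on norUDCA, but they were picked with their calls known. The ISRE letters also stood in Ddx58, Ifih1, Stat2 and Trim30a, which did not pass the test over 12 libraries. Ifit1, with 2 matches like its neighbour Ifit3, had 4.26 to 9.19 CPM in chow and 1.73 to 7.54 CPM in norUDCA without reaching the threshold (log2 fold change -0.53, SE 0.30, adjusted p = 0.260). Reads of Ifit1 and Ifit3 may be shared with near-identical copies of the family. A match is a description of letters and no proof of a bound site.

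No GTPase passed the test over 12 libraries, and their levels within norUDCA were set apart by norUDCA 13. The median coefficient of variation over the 10 genes was 20.2% in chow and 54.0% in norUDCA, whereas over the type I members it was 25.0% in chow and 30.9% in norUDCA. Igtp (Irgm3), a guardian of cellular membranes that keeps effector Irg proteins inactive, had 11.7 to 28.6 CPM (median 15.5) in chow. In norUDCA it had 11.1 to 15.6 CPM in 5 libraries and 72.1 CPM in norUDCA 13, 4.63 times the next. Gbp6, a guanylate-binding protein, had 11.8 to 22.4 CPM in chow, 10.8 to 20.5 CPM in 5 norUDCA libraries and 62.8 CPM in norUDCA 13. Irgm2, like Igtp a regulator of the effector Irg proteins, had 19.1 to 35.5 CPM in chow, 15.4 to 24.5 CPM in 5 norUDCA libraries and 61.4 CPM in norUDCA 13. In these 3 genes the 5 other norUDCA libraries lay within or below the chow range. Their log2 fold changes over all libraries were 0.39 for Igtp (95% interval -0.58 to 1.36), 0.41 for Gbp6 (-0.39 to 1.21) and 0.07 for Irgm2 (-0.56 to 0.70), and all of them turned negative without norUDCA 13, at -0.44, -0.20 and -0.36, none of which passed the test.

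Tgtp1, a GTPase of the effector class, had 2.05 to 3.28 CPM in chow, 0.975 to 1.48 CPM in 5 norUDCA libraries and 6.65 CPM in norUDCA 13. Its log2 fold change was -0.17 (SE 0.43, adjusted p = 0.828) with norUDCA 13 and -0.92 (adjusted p = 0.00808) without it, and its reads may be shared with the near-identical Tgtp2. Irgm1, the other regulator, had 37.3 to 57.5 CPM in chow, 28.6 to 38.2 CPM in 5 norUDCA libraries and 71.6 CPM in norUDCA 13 (log2 fold change -0.19, adjusted p = 0.573, and -0.44, adjusted p = 0.0388, without it). Iigp1 (Irga6), an effector that vesiculates parasite vacuoles, was the most abundant GTPase. It had 217 to 291 CPM (median 266) in chow, 150 to 216 CPM in 5 norUDCA libraries and 306 CPM in norUDCA 13. Iigp1 was the GTPase closest to the threshold (log2 fold change -0.36, 95% interval -0.67 to -0.05, adjusted p = 0.114), and it was called lower without norUDCA 13 (log2 fold change -0.49, adjusted p = 0.00908). Gbp3 had 4.35 to 6.10 CPM in chow and 2.10 to 4.26 CPM in 5 norUDCA libraries with norUDCA 13 at 8.50 CPM (log2 fold change -0.40, adjusted p = 0.394, and -0.76, adjusted p = 0.0211, without it). Ifi47 (Irgd) had 10.7 to 30.5 CPM in chow and 12 to 28.6 CPM in norUDCA (log2 fold change -0.34, adjusted p = 0.378). Gbp7 had 6.88 to 14.2 CPM in chow and 8.52 to 23.8 CPM in norUDCA (log2 fold change 0.33, adjusted p = 0.377), and Gbp2 had 2.92 to 4.18 CPM in chow and 2.21 to 7.10 CPM in norUDCA (log2 fold change 0.13, adjusted p = 0.771). Gbp7 was the only GTPase that stayed above 0 without norUDCA 13, at 0.10.

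Of the GTPases that lie on chromosome 11, Igtp, Irgm2 and Tgtp1 share a promoter arrangement, and theirs are the stretches shown with those of Irgm1 and Gbp2, which hold ISRE letters alone, and of Irf1, which holds GAS letters alone. The stretch of Igtp lies at chr11:58199496-58199546 (plus strand), that of Irgm2 at chr11:58214887-58214937 (plus strand) and that of Tgtp1 at chr11:48992299-48992349 (minus strand). The stretch of Irgm1 lies at chr11:48871421-48871465 (minus strand), that of Gbp2 at chr3:142620589-142620628 (plus strand) and that of Irf1 at chr11:53769909-53769947 (plus strand). The stretches of Irgm2, Tgtp1 and Irgm1 lie inside the counted genes, whose starts differ from the RefSeq starts. Capitals mark the matches.
Igtp: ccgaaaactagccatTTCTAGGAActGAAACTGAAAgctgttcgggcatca
Irgm2: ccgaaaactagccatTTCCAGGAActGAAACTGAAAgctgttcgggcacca
Tgtp1: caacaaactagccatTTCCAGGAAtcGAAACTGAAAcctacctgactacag
Irgm1: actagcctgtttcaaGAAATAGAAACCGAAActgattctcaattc
Gbp2: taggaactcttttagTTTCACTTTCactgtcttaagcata
Irf1: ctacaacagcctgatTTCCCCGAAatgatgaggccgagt
In Igtp, Irgm2 and Tgtp1 the GAS match starts 11 bases before the ISRE match. The stretches of Igtp and Irgm2 are identical at 49 of 51 bases, and that of Tgtp1 matches them at 34 and 36 of 51 bases. Both motifs together stood in 6 members (Igtp, Irgm2, Tgtp1, Gbp7, Bst2 and Oas1a), beside 0.54% of all genes. The ratio of norUDCA 13 to the next norUDCA library was highest in Igtp and ran from 1.42 to 4.63 over the 10 GTPases, and from 0.717 to 3.25 over the type I members. Igtp and Irgm2 overlap on the same strand in the count table, so reads of one could be counted for the other.

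Set side by side in each library, both classes were low in 5 of 6 norUDCA libraries. Each member's CPM was divided by its chow median, and the median of the log2 ratios was taken over each class. Over the type I members this value lay between -0.24 and 0.10 in the 6 chow libraries, between -1.01 and -0.47 in 5 norUDCA libraries, and at 0.01 in norUDCA 13. Over the GTPases it lay between -0.18 and 0.24 in chow, between -0.61 and -0.26 in 5 norUDCA libraries, and at 1.11 in norUDCA 13. The GTPase value exceeded the type I value by -0.16 to 0.23 in chow and by 0.08 to 1.11 in norUDCA, with the largest excess in norUDCA 13 and then norUDCA 20 (0.73). The library norUDCA 20 held the lowest type I value, and 16 of 26 type I members were at their lowest treated level there. Without norUDCA 13, 16 type I members and 4 GTPases (Gbp3, Irgm1, Iigp1 and Tgtp1) were called lower and none higher, and the medians were -0.73 and -0.44. Among all genes 14.0% were called in that fit, 7.21% lower and 6.76% higher. No GTPase was called when any other single library was left out. Since norUDCA 13 was singled out by these same genes, the added calls are no independent support. Without it the difference between the class medians shrank from 0.53 to 0.29 on the log2 scale. No test was set on this difference, since the members were chosen with results of these data known. The total count of norUDCA 13 (14743002) lay within the range of its group.

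**Figure D4:**
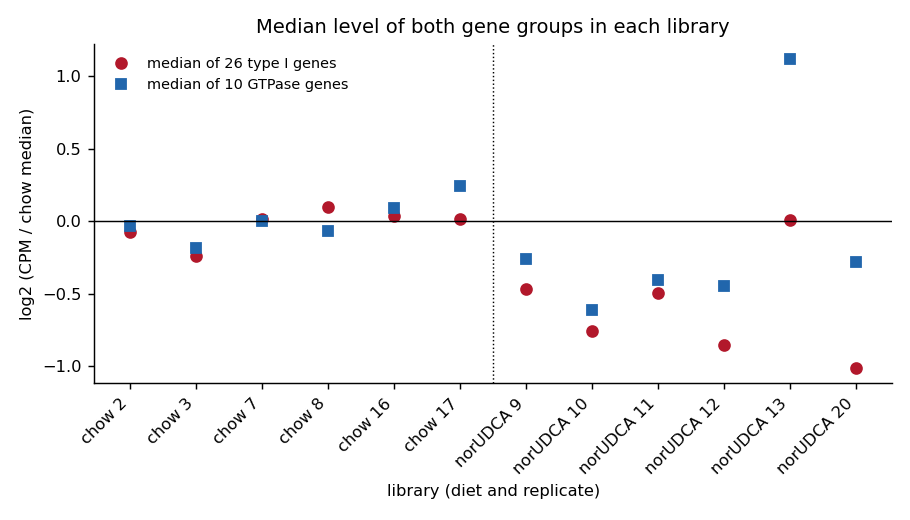
Median over the 26 type I members (circles) and the 10 GTPases (squares) of log2 CPM over the chow median, in each library. In chow both medians lie between -0.24 and 0.24; in 5 norUDCA libraries both lie below 0, and in norUDCA 13 the type I median is 0.01 and the GTPase median 1.11.

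Irf1 differed among the libraries of one diet more than between the diets. It had 42.8 CPM in chow 3 and 7.58 to 14.5 CPM in the other 5 chow libraries, and 7.55 to 19.1 CPM in norUDCA, so the groups overlapped throughout. The log2 fold change was -0.40 (95% interval -1.26 to 0.46, adjusted p = 0.553), and 0.19 without chow 3. The library chow 3 also held the highest level of Cxcl10, a chemokine that attracts T cells (13.0 CPM, next chow library 2.38), and of Ikbke, a kinase that phosphorylates Irf3 and Irf7 (93.3 CPM, next 49.6). The type I and GTPase medians of chow 3 were the lowest of the chow libraries. In norUDCA 13, which was highest in the GTPases, Irf1 had 16.7 CPM, the next highest norUDCA level after the 19.1 CPM of norUDCA 10 (norUDCA median 11.3 CPM).

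The interferons themselves were hardly detected. Of 21 ligand genes 17 had 0 counts in all 12 libraries, Ifnb1 and the interferon-alpha genes numbered in the list among them, and none passed the filter. Ifng had 2 counts, both in norUDCA 10, and Ifnk 53 counts over all libraries. Among 19 receptor and signalling genes tested 2 fell (10.5%, beside 8.62% of all tested genes) and none rose. Stat3, which carries interleukin-6 signals in hepatocytes, had a mean of 277 ± 65.9 CPM in chow and 176 ± 39.6 CPM in norUDCA (SD, n = 6, log2 fold change -0.65, edgeR adjusted p = 0.0161), and Irf5, an inflammatory factor of macrophages, had a log2 fold change of -0.49 (adjusted p = 0.0284, and 0.0654 without norUDCA 13). The receptor chain Ifnar1 had a log2 fold change of 0.10 (adjusted p = 0.451) and Ifngr1 of -0.27 (adjusted p = 0.0712). Among 16 genes of nucleic acid sensing 1 was called in each direction (6.25%, no more than among all tested genes). Ikbke fell (log2 fold change -0.90, adjusted p = 0.0158) and Rnf135, a ubiquitin ligase that activates RIG-I, rose (0.73, adjusted p = 0.0112).

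Of 46 further interferon-stimulated genes tested 7 fell (15.2%, beside 8.62% of all tested genes) and 1 rose. Without norUDCA 13 the counts were 9 and 0, with Cmpk2 and Herc6 added, where 7.21% of genes were called lower and 6.76% higher. That library was the highest norUDCA library in 28 of the 46, against 15.2% of all tested genes. The falls were in Oas1g (log2 fold change -1.28), Ifi27l2a (-1.01), Ly6e (-0.70), the membrane proteins Ifitm3 (-0.58) and Ifitm2 (-0.56) that block virus entry, Shisa5 (-0.44) and Helz2 (-0.43), with adjusted p from 0.00643 (Ifitm3) to 0.0468 (Ifi27l2a). The mono-ADP-ribosyltransferase Parp12 rose (0.27, adjusted p = 0.0404, and 0.0669 without norUDCA 13). Among 9 further interferon-inducible GTPases only Gvin1, a very large GTPase, passed the test with all libraries (11.1% lower, beside 8.62% of all tested genes). Without norUDCA 13 Gbp8 did too (log2 fold change -1.13, edgeR adjusted p = 0.0363), where 7.21% of genes were called lower. Gvin1 had 1.66 to 5.79 CPM in chow and 0.325 to 1.54 CPM in norUDCA, without overlap (log2 fold change -1.97, SE 0.38, adjusted p = 0.00305). In Gvin1 norUDCA 13 was not apart, at 1.53 CPM. In 6 of these 9 genes norUDCA 13 was the highest of all 12 libraries. The chemokine Cxcl9, a classic interferon-gamma target, had 3.24 to 8.69 CPM in chow and 12.1 CPM in norUDCA 13, next to 6.44 CPM at most in the other norUDCA libraries (log2 fold change -0.05, adjusted p = 0.931). Cxcl10 did not pass the test (-1.12, adjusted p = 0.338).

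Of 22 genes of MHC class I presentation 6 fell (27.3%) and 1 rose, beside 8.62% lower and 6.73% higher among all tested genes. H2-Q7 (log2 fold change -0.66, adjusted p = 0.000338), H2-D1 (-0.41, adjusted p = 0.00329), H2-K1 (-0.35, adjusted p = 0.0100) and H2-Q6 (-0.40, adjusted p = 0.0439, and 0.0802 without norUDCA 13) encode heavy chains, whose reads may be shared among near-identical H2 genes, and Calr and Pdia3 encode the chaperones calreticulin and ERp57. The proteasome subunit Psmb8 was called lower only without norUDCA 13 (-0.45, adjusted p = 0.0158). Psme1, a subunit of the interferon-gamma-induced proteasome activator, rose without overlap (0.35, adjusted p = 0.00596), from 61.5 to 69.7 CPM in chow to 72.5 to 96.7 CPM in norUDCA. The peptide transporter Tap1 had 44.2 CPM in norUDCA 13 against 25.5 CPM at most in the other norUDCA libraries and did not pass the test (0.17, adjusted p = 0.572). Of 8 tested genes of MHC class II presentation 1 fell (12.5%, beside 8.62% of all tested genes), the protease Ctss (-0.64, adjusted p = 0.0487). Without norUDCA 13 the invariant chain Cd74 fell too (-0.69, adjusted p = 0.0428), where 7.21% of genes were called lower. The library norUDCA 13 was the highest norUDCA library in 8 of 8, against 15.2% of all tested genes.

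**Figure D5:**
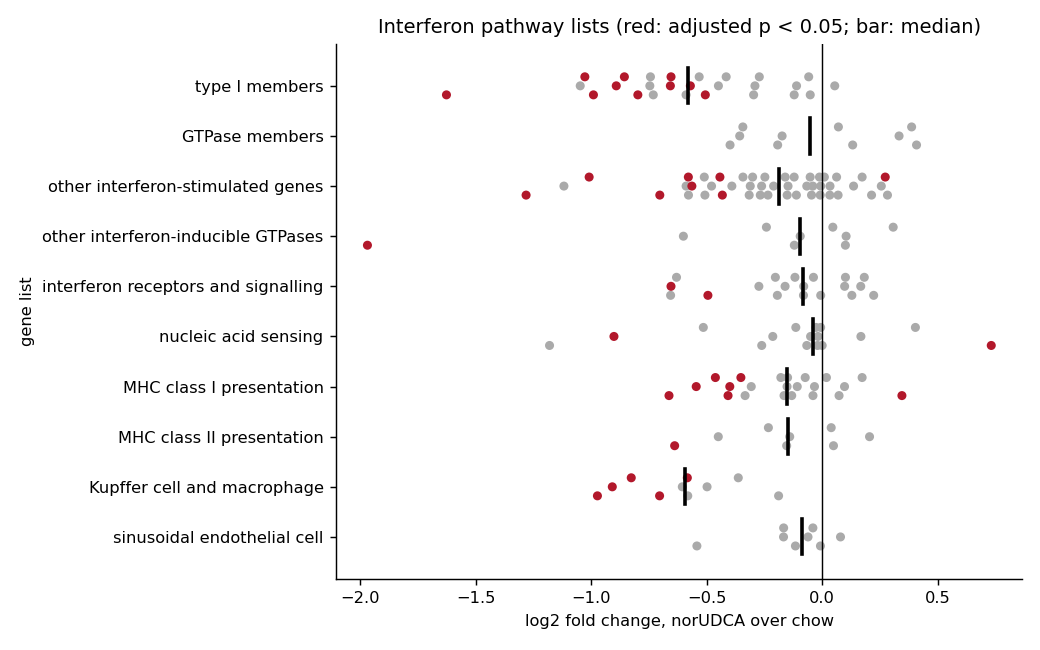
Log2 fold change of norUDCA over chow for each tested gene of the members and of the interferon pathway and cell marker lists (points, red where edgeR adjusted p is under 0.05), with the median of each list as a bar. The median is -0.58 for the type I members, -0.05 for the GTPase members and -0.59 for the Kupffer cell and macrophage markers.

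Markers of Kupffer cells moved in the same direction as the type I members. All 10 tested Kupffer cell and macrophage markers had a negative log2 fold change (median -0.59), and 5 fell, namely Clec4f, Vsig4, Cd5l, Csf1r and C1qb, where 8.62% of all tested genes did. Without norUDCA 13 the count was 8 of 10 (median -0.83), with Marco, C1qa and C1qc added, where 7.21% of genes were called lower. Clec4f, a lectin restricted to Kupffer cells, had 43.8 to 124 CPM in chow and 29.6 to 50.6 CPM in norUDCA (log2 fold change -0.83, adjusted p = 0.0167). The summed level of the 10 markers was 184 to 441 CPM in chow and 110 to 262 CPM in norUDCA, none of the 10 was at 0, and norUDCA 13 was the highest norUDCA library in 10 of 10, at 262 CPM in sum against 169 CPM in the next. The part of these cells in the member results was not tested. None of 8 sinusoidal endothelial markers was called (edgeR). Of the T and NK cell markers 11 of 12 did not pass the filter, with 6 to 65 counts each over all libraries. The hepatocyte markers, defining for the tissue, were far above all others with a sum of 64950 to 82605 CPM. Of these, 4 of 8 fell, beside 8.62% of all tested genes. Among other tested markers 2 of 5 cholangiocyte genes and 2 of 4 monocyte and neutrophil genes fell, beside the same 8.62%. Of 8 stellate cell markers 2 rose, beside 6.73% of all tested genes. Without norUDCA 13, 1 of 4 monocyte and neutrophil genes fell and 1 of 8 stellate cell markers rose, where 7.21% of genes were called lower and 6.76% higher.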

How the data were processed

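The authors deposited raw counts per gene for whole liver RNA of 12 mouse libraries, with gene positions and lengths in the same table. The submitters' processing notes name CASAVA, STAR and DESeq2, with no version. The genome build, the annotation and any strand setting were not given in the sources used here. Of the members 26 lie at the position that GENCODE M21 gives them, and 12 overlap another listed gene, so that their reads could be shared. The deposited tables of the authors' own comparisons hold FPKM, fold changes and p-values and were not used. No column of the count table was left out.

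Counts were filtered with filterByExpr, scaled by TMM and fitted by diet alone with edgeR 4.0.16 (glmQLFit, glmQLFTest) in R 4.3.3, with Benjamini-Hochberg adjustment over the 12378 tested genes and calls at an adjusted p under 0.05. CPM used TMM-scaled library sizes, and the SE is the log2 fold change over the root of F. Alternatives were DESeq2 size factors, total counts or upper quartiles as scaling, no filter beyond 1 count, DESeq2 1.42.0, limma-voom (limma 3.58.1) and leaving out each library. Voom with sample weights was added after the data were seen. The scripts were tested on simulated data.

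Members and lists were chosen with earlier results of these data known. Named members were those called, those without overlap, those far from their group and, of the rest, the most abundant and those with the smallest p. From each other list up to 4 called genes were named by smallest p, together with Ifng, Ifnb1, Ifnar1, Ifngr1, Cxcl9 and Cxcl10. A further gene of this rule is not reported here. Further names were added where they help to place a member and were chosen after their values were seen. Promoter letters came from RefSeq windows of GRCm38.p6, matched by symbol. Total counts were higher on norUDCA, and with 6 libraries a group their number limits the precision.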

Additional observations from a re-analysis of the deposited data

Results flagged for a closer look

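In each diet and member the highest or lowest of the 6 libraries was set against its neighbours by Dixon's ratio, the gap to the nearest library over the whole range. Of 74 such groups 15 held a library far from the others, each time on the high side. Chance alone marks about 1 in 20 groups, and among all tested genes 6.91% were marked in chow and 5.82% in norUDCA.

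The library norUDCA 13 accounted for 13 of the 15. It was a high outlier in 13 of the 37 members, where 0.921% of all tested genes had it as one. Its levels in CPM, with the next norUDCA library after each, were as follows. Among the type I members it had 9.21 in Isg15 (next 4.95), 43.4 in Irf9 (next 23.7), 10.4 in Dhx58 (next 6.56), 8.82 in Xaf1 (next 4.67) and 10.2 in Zbp1 (next 3.15). Among the GTPases it had 72.1 in Igtp (next 15.6), 71.6 in Irgm1 (next 38.2), 62.8 in Gbp6 (next 20.5), 61.4 in Irgm2 (next 24.5), 28.6 in Ifi47 (next 15.995), 8.50 in Gbp3 (next 4.26), 7.10 in Gbp2 (next 3.90) and 6.65 in Tgtp1 (next 1.48). The library's total count lay within its group, and voom gave it a sample weight of 1.17, not the lowest of its group.

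In chow, Ifi27 was at 126 CPM in chow 2 (next 90.2), and Irf1 was at 42.8 CPM in chow 3 (next 14.5). Voom gave chow 2 the lowest sample weight of all libraries, 0.51.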

How the results depend on the processing

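The fall of type I members kept its direction in every alternative run. Of all 37 members, 7 to 20 were called when 1 library was left out (10 with all libraries). Over all tested genes those fits called from 773 (without norUDCA 20) to 1083 (without chow 3) lower, beside 1067 of 12378 with all libraries. The type I medians of those fits ran from -0.73 to -0.48, and scaling by total counts gave -0.43. Without norUDCA 13, 20 members were called (16 type I and 4 GTPases), and over the leave-one-out fits type I calls ran from 7 to 16 and GTPase calls from 0 to 4 lower and 0 higher. Members without overlap ran from 2 to 12, being 4 without chow 2, 4 without norUDCA 9 and 12 without norUDCA 13. Leaving out a library can only keep or raise this count in any set of genes. Of all tested genes 4.07% were lower without overlap with all libraries and 4.93% without norUDCA 13. The count of calls was 13 with DESeq2, 11 with limma-voom, 12 with sample weights, 9 with upper quartile scaling and 9 without a filter. All genes called lower numbered, in the same order, 1239 of 22530, 1013 of 12378, 1144 of 12378, 883 of 12378 and 828 of 22530. Scaling by total counts gave 8 members, and in the pathway lists 10 lower and 8 higher genes in place of 18 and 3, with all genes shifted to a median of 0.15. It called 565 of 12378 genes lower.

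Signs turned only in members that were not called. With total counts the log2 fold change was 0.10 in Irf9, 0.087 in Oasl1, 0.040 in Oasl2 and 0.028 in Ddx58. With 1 library left out it ranged from -0.26 to 0.047 in Irf9, -0.18 to 0.11 in Oasl1, -0.25 to 0.088 in Oasl2, -0.14 to 0.26 in Gbp2, -0.20 to 0.57 in Gbp6, -0.44 to 0.60 in Igtp, -0.36 to 0.20 in Irgm2 and -0.55 to 0.19 in Irf1. In Irgm2 limma-voom gave -0.082, and -0.012 once libraries were weighted. The cause of these turns was not tested. Over the single members and the median of all genes 655 values kept direction and side of the threshold, 26 lost and 19 gained the threshold. No paired analysis was possible because the diets share no replicate numbers. Low counts limit members such as Mx1, Oas1a and Ifi44.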

Other observations

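Among the cell markers Cd4, the coreceptor of helper T cells, had the largest fall. It had 2.13 to 3.34 CPM in chow and 0.256 to 0.468 CPM in norUDCA, without overlap (log2 fold change -2.86, SE 0.21, edgeR adjusted p = 9.12e-07), and it stayed low in norUDCA 13 at 0.256 CPM. The T-cell receptor chains that would go with it were near 0, with 48 counts of Cd3e, 24 of Cd3d and 24 of Cd3g over all 12 libraries, beside 247 of Cd4. The neutrophil proteins S100a8 and S100a9 fell too (log2 fold changes -1.57 and -1.39, adjusted p = 0.0399 and 0.0375, and 0.0679 and 0.0414 without norUDCA 13, where S100a8 was no longer called), from 0.585 to 4.18 CPM in chow to 0.279 to 1.5 CPM in norUDCA for S100a8. Both genes were highest in chow 7, as were 9 of 10 Kupffer cell markers.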
